A study of Mus musculus with 40 samples.

Results

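The S100 genes encode small calcium-binding proteins, and 10 of them were followed by name across sorted cells of mouse colon tumors, healthy colon and blood: S100a1, S100a4, S100a6, S100a8, S100a9, S100a10, S100a11, S100a13, S100a14 and S100a16. Their rows were taken by symbol from 45706 gene rows measured in 40 RNA-sequencing libraries, 4 in each of 10 groups. Most S100 proteins are dimers with a pair of calcium-binding EF-hands, and calcium binding exposes a surface that docks on target proteins such as annexins and myosins. S100a8 and S100a9 together form calprotectin, a major cytosolic protein of neutrophils that sequesters zinc and manganese and, once released, acts on the receptors Tlr4 and Ager.

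Tumor-bearing mice carried Cdx2CreERT2 and Apc fl/fl, that is, a Tamoxifen-inducible Cre driven by the promoter of the intestinal epithelial factor Cdx2 and floxed alleles of the tumor suppressor Apc, and received Tamoxifen at 25 mg/kg when 8 to 10 weeks old. Healthy mice were C57Bl6 with no transgene and no agent, whereas the tumor-bearing mice are labelled C57Bl6/Sv129 (the number at the end of that strain label runs on from library to library). Genotype, Tamoxifen, strain and tumor therefore differ together between tumor-bearing and healthy mice and cannot be told apart. Neutrophils (CD45+ CD11b+ MHCII- Ly6G+) and Ly6C-high monocytes were sorted from tumors, from the blood of tumor-bearing mice and from the blood of healthy mice, while epithelial (EpCAM+ CD45-) and stromal cells (EpCAM- CD45-) were sorted from tumors and from healthy colon. Each library was made from RNA of 200000 to 500000 sorted cells. Both of the last tumor stromal libraries are labelled replicate 3, and they are called replicates 3 and 4 here. The titles name 7 animals for the 16 tumor libraries, 6 of which gave at least 2 of them, so that tumor cell types share animals. By the titles, some tumor and blood libraries of tumor-bearing mice also share animals. So do healthy blood neutrophils and replicates 3 and 4 of the healthy blood monocytes, and replicate 4 of healthy epithelial and of healthy stromal cells. A block for the titled animal was fitted only for the contrasts within tumors, so the other comparisons ignore this sharing. Of 9 titled animals with at least 2 libraries (a pool counted under its own title), 3 had Xist, which females express, under 0.1 RPKM in one library and over 1 RPKM in another, so the titled animal is uncertain for these. Libraries of the titled animals behind healthy epithelium had Xist at 6.68 RPKM or more. Among those behind tumor epithelium, T1, T2 and T4 had 0.0492 RPKM or less and T5 had 0.0225 to 46.8 RPKM. Sex may therefore differ along with the tumor in the epithelial comparison, and its part was not tested. Of the 40 libraries, 4 pooled 2 animals each: replicate 3 of the tumor-bearing blood neutrophils and replicates 2, 3 and 4 of the healthy blood monocytes. Levels are given as RPKM, reads scaled to gene length and library size, as deposited by the authors, and each mean is followed by its SD over 4 libraries. A gene is said to have risen or fallen only where edgeR's quasi-likelihood test on the counts gave a Benjamini-Hochberg adjusted p under 0.05 over all genes tested together with a log2 fold change beyond 1.5 in size. Values after a log2 fold change are its standard error.

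Total counts per library ran from 10717873 to 38002939, and mitochondrially encoded genes took 5.34% to 83.9% of them. Blood monocytes of both kinds had summed neutrophil markers (8 genes, among them Ly6g, Cxcr2 and Retnlg) of 28.5 to 148 RPKM against 952 to 4503 RPKM in blood neutrophils. Tumor stromal libraries went against their label in part, with fibroblast markers at 5.97 to 24.0 RPKM against 355 to 2010.4 RPKM in healthy stromal cells. Epithelial markers in these 4 libraries summed to 227, 132, 50.5 and 29.9 RPKM, and replicates 3 and 4 also held neutrophil markers at 351 and 126 RPKM. Tumor neutrophil libraries carried epithelial markers at 170, 40.05, 37.0 and 12.3 RPKM, against 0.647 to 1.55 RPKM in the blood neutrophils of tumor-bearing mice. Full-length Apc counts do not resolve the floxed exon, and Apc was listed at 5.97 to 6.51 RPKM in tumor epithelium and 0.343 to 3.34 RPKM in healthy epithelium.

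The 10 genes lie on chromosome 3 (mm10). S100a1, S100a13, S100a14, S100a16, S100a4, S100a6, S100a8 and S100a9 follow each other within 184.688 kb, and after a gap of 2.82 Mb S100a11 (chr3:93520488-93526287) and S100a10 (chr3:93555080-93564643) lie 28.792 kb apart. S100a8 (chr3:90668978-90670035, plus strand) and S100a9 (chr3:90692632-90695721, minus strand) are 22.596 kb apart, and only 42 bases separate S100a1 (chr3:90511034-90514392) from S100a13 (chr3:90514435-90524581). Their promoters were searched for TATAAA, the TATA box core, and GGGCGG, the GC box, on both strands in windows from 250 bases before to 50 bases after the RefSeq start. Of the 8 members with an entry (RefSeq, GRCm38.p6; S100a10 and S100a14 had none), S100a4, S100a8 and S100a9 held TATAAA, which 13.6% of all 32851 windows of 300 bases hold. These 30-base stretches are shown because most calls between cell types turned on these 4 members. The motif is in capitals.
S100a8 promoter, chr3:90669029-90669058, plus strand: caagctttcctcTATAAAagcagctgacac
S100a9 promoter, chr3:90695704-90695733, minus strand: caaggagctgccTATAAAtactgggcttac
S100a4 promoter, chr3:90603727-90603756, plus strand: ggcctggcagggTATAAAtaggtcagattg
S100a11 promoter, chr3:93520460-93520489, plus strand: agtcaggctgagGGGCGGgacccggacccc

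The motif began 30 bases before the annotated start in S100a8 and 31 before it in S100a4, whereas in S100a9 it began at the annotated start itself. S100a11, which was found at some level in every library, had no TATAAA but 3 GGGCGG matches, at 64, 52 and 24 bases before its start. GGGCGG occurs in 35.7% of all windows, and S100a9 and the second S100a16 entry also held 1 match each. S100a1, S100a6, S100a13 and the first S100a16 entry held neither motif in these windows.

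S100a8 and S100a9 were the most abundant members, and neutrophils held most of both. In tumor neutrophils S100a8 was at 385, 3385, 2846 and 2583 RPKM in replicates 1 to 4, in the blood neutrophils of tumor-bearing mice at 4798, 5096, 14922 and 3988 RPKM, and in those of healthy mice at 3805, 1913, 788 and 1768 RPKM. All 4 libraries from the blood of tumor-bearing mice lay above the 4 tumor libraries and the 4 healthy ones. S100a9 was at 1328, 1324, 7849 and 7290.1 RPKM in tumor neutrophils, at 9782, 10369, 1568 and 9264 RPKM in blood neutrophils of tumor-bearing mice, and at 723, 5305, 2012 and 4629 RPKM in those of healthy mice. For S100a9 the 3 groups overlapped. Counts of the 10 members made up 4.31% to 5.95% of all non-mitochondrial counts in the blood neutrophils of tumor-bearing mice, 1.05% to 2.32% in healthy blood neutrophils and 0.687% to 2.98% in tumor neutrophils, against 0.0162% to 0.445% in the libraries of all other groups.

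Monocytes held far less of both. S100a8 was at 31.0, 49.4, 68.3 and 49.9 RPKM in the blood monocytes of tumor-bearing mice, at 2.11, 9.37, 2.88 and 1.78 RPKM in those of healthy mice and at 12.9, 3.86, 19.3 and 8.60 RPKM in tumor monocytes. The tumor-bearing blood monocytes were above all libraries of both other monocyte groups. S100a9 was at 69.3, 7.97, 99.5 and 102 RPKM in blood monocytes of tumor-bearing mice, at 1.22, 0.385, 2.09 and 3.00 RPKM in those of healthy mice and at 14.3, 7.53, 0.507 and 6.21 RPKM in tumor monocytes. Epithelial cells were near the bottom of the order, with S100a8 at 0.130 to 1.03 RPKM in tumors and 0 to 1.70 RPKM in healthy colon.

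**Figure D1:**
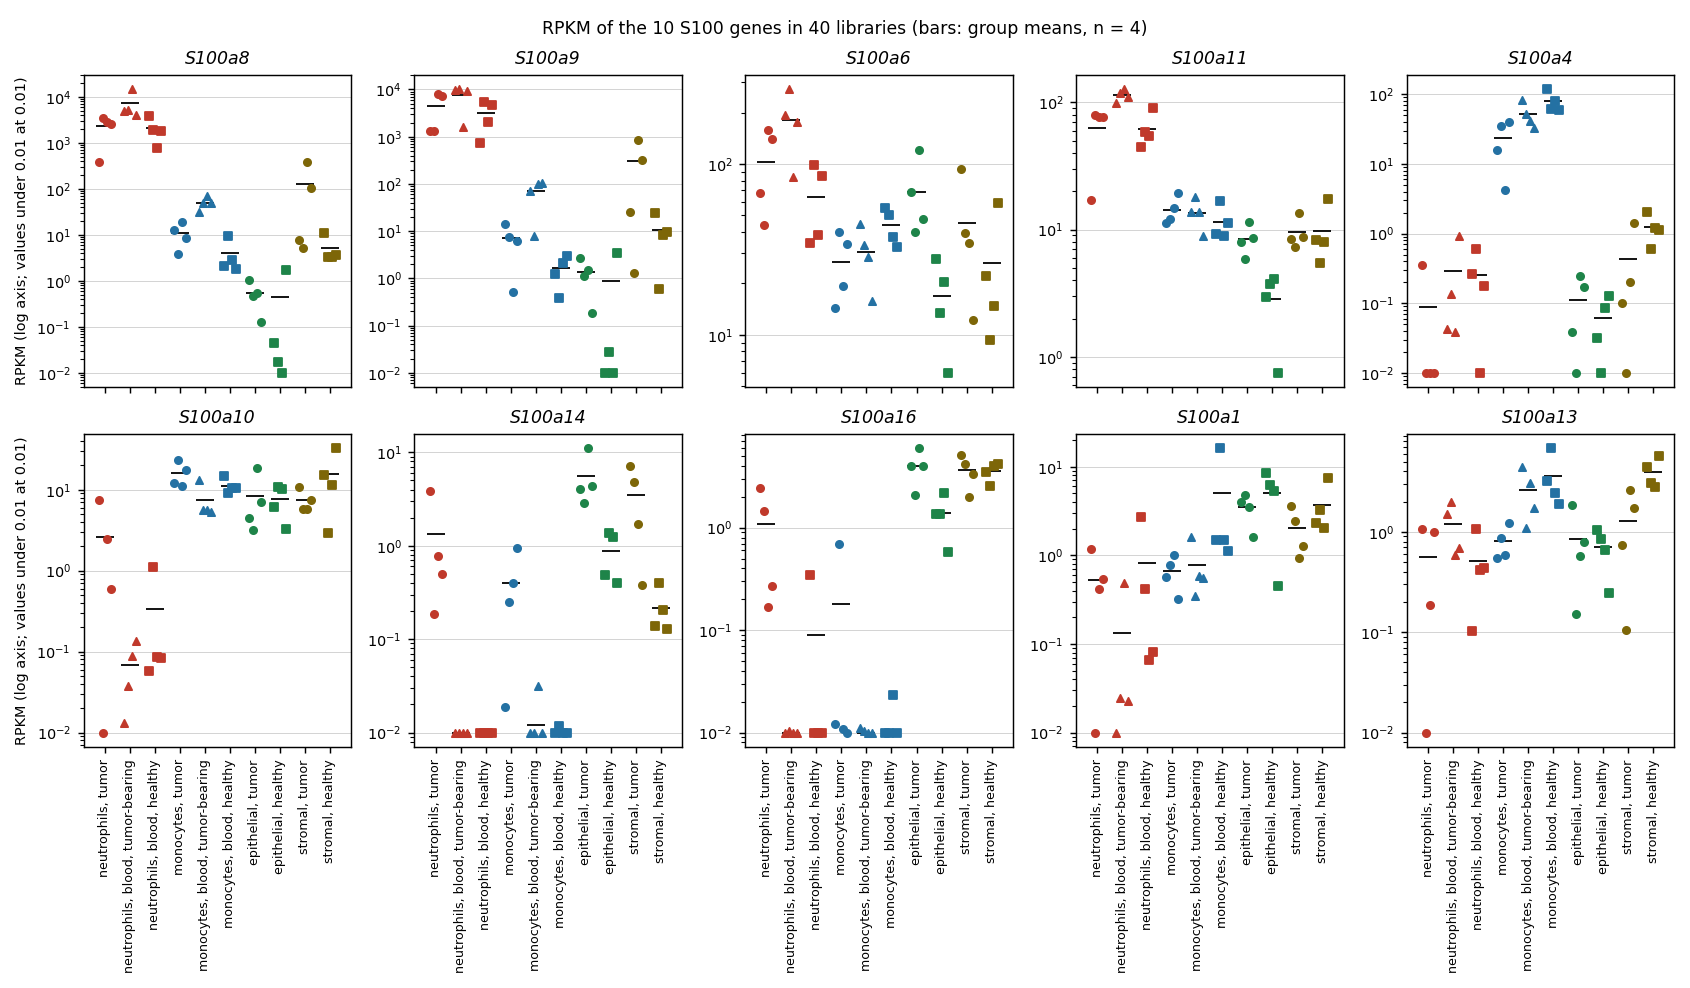
RPKM of the 10 S100 genes (log axes, values under 0.01 drawn at 0.01) in the 40 libraries, 1 point per library and 1 bar per group mean (n = 4), with circles for tumor, triangles for blood of tumor-bearing mice and squares for healthy mice. S100a8 spans 0 to 14922 RPKM, S100a4 is at 4.24 RPKM or more in the 12 monocyte libraries and at 2.03 RPKM or less in all others, and S100a14 and S100a16 are highest in tumor epithelial cells.

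The ratio of S100a9 to S100a8 set some libraries apart. Among the 34 libraries with S100a8 at 1 RPKM or more, S100a9 was the higher of the pair in 23, at 1.11 to 3.45 times S100a8 (median 2.32). It was at 0.578 to 0.725 times S100a8 in 3 libraries and below 0.5 times in 8, where the ratio was 0.0263 to 0.391. These 8 libraries fell 1 to a group: replicate 2 of tumor neutrophils (0.391), replicate 3 of tumor-bearing blood neutrophils (0.105), replicate 1 of healthy blood neutrophils (0.190), replicate 3 of tumor monocytes (0.0263), replicate 2 of tumor-bearing blood monocytes (0.162), of healthy blood monocytes (0.0411), of tumor stromal cells (0.250) and of healthy stromal cells (0.183). Of the 8, replicate 3 of tumor-bearing blood neutrophils and replicate 2 of healthy blood monocytes were pools of animals. In each neutrophil and monocyte group the low library also had the fewest genes with any count. These were 27915, 31709, 32965, 30947, 31819 and 30475 genes in the order above. In the stromal groups it did not, with 33177 genes in tumor and 36140 in healthy stromal cells, where the lowest were 32816 and 34142. The part of this in the ratio was not tested. In replicate 3 of tumor-bearing blood neutrophils S100a8 was the highest and S100a9 the lowest of the group, so that their sum, 16489.5 RPKM, lay near the 13252 to 15465 RPKM of the other 3 libraries. The summed pair ran from 2799.9 to 7218 RPKM in healthy blood neutrophils and from 1713 to 10695 RPKM in tumor neutrophils. Counts of called members below were also taken without these 8 libraries, which were chosen after their values were seen. None of them is epithelial, so the comparison of tumor and healthy epithelial cells had no such fit. Since S100a8 and S100a9 chose them, fits without them are no test of these 2 genes.

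**Figure D2:**
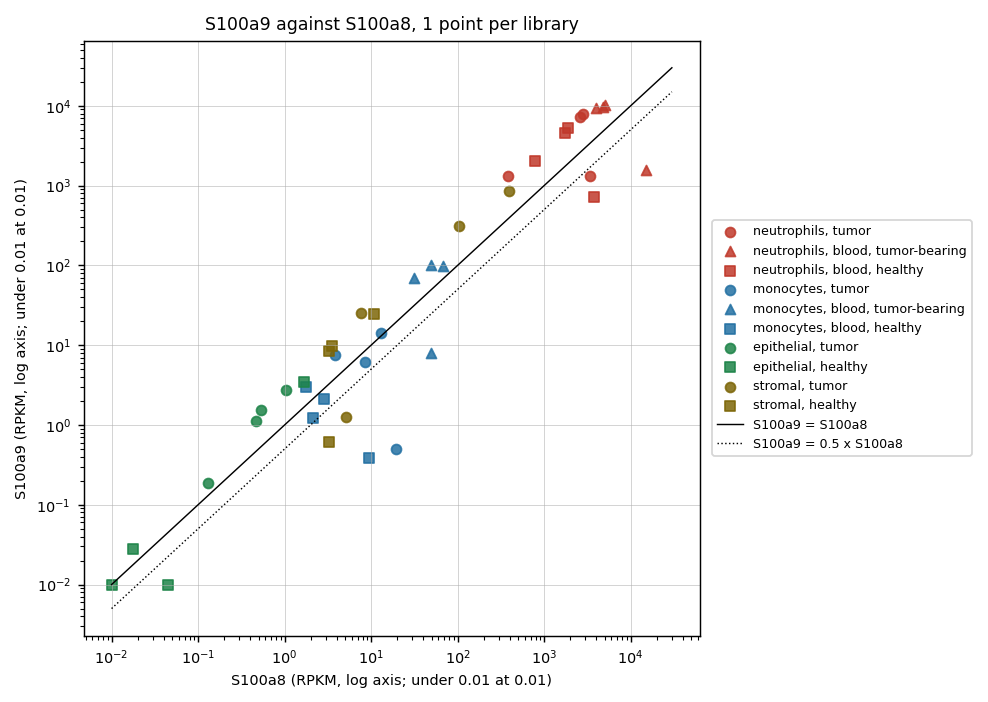
S100a9 against S100a8 in RPKM (log axes, values under 0.01 drawn at 0.01), 1 point per library, with the line of equal level and the line at 0.5 times S100a8. Most points follow a line above equality, and 8 libraries at 1 RPKM of S100a8 or more lie below the dotted line, each from a different group.

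S100a11, which binds annexin A1, and S100a6 (calcyclin) were next in level. S100a11 was at 98.8, 119, 128 and 109.8 RPKM in blood neutrophils of tumor-bearing mice, above all 4 libraries of tumor neutrophils (17.1, 80.0, 76.5 and 77.1 RPKM) and of healthy blood neutrophils (44.3, 58.6, 53.9 and 90.3 RPKM). Its means in monocyte, stromal and tumor epithelial groups were 8.48 to 14.3 RPKM, and healthy epithelium was lowest at 2.88 ± 1.49 RPKM, with no overlap with tumor epithelium (8.48 ± 2.33). The S100a11 row was uncertain, since 5 processed pseudogenes resemble its transcript by 90.6% to 99.0% over 227 to 303 bases, and the authors' counting could split reads among them. S100a11 held 34.3% of the counts summed over itself and these copies, with a range of 33.0% to 37.7% over libraries. How many reads of the copies came from S100a11 was not tested.

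S100a6 was broadly present and its groups overlapped at every step of their order. Replicates 1 to 4 had 193, 276, 83.4 and 175 RPKM in blood neutrophils of tumor-bearing mice, 67.6, 44.1, 159 and 139 RPKM in tumor neutrophils, and 34.4, 98.0, 38.5 and 84.6 RPKM in healthy blood neutrophils. Tumor epithelial cells followed with 68.2, 39.99, 120.4 and 47.5 RPKM, and healthy epithelial cells were the lowest group, with 27.7, 13.5, 20.3 and 5.99 RPKM. Here the epithelial groups did not overlap, although they are not neighbours in the order.

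S100a4, also known as metastasin and a partner of nonmuscle myosin, was a gene of monocytes in these data. It was at 119.9, 60.5, 81.0 and 59.7 RPKM in healthy blood monocytes, at 81.3, 51.8, 40.9 and 33.1 RPKM in blood monocytes of tumor-bearing mice, and at 16.1, 35.0, 4.24 and 39.5 RPKM in tumor monocytes. No library of another sort exceeded 2.03 RPKM, the highest value in healthy stromal cells (mean 1.24 ± 0.589). In the 12 neutrophil libraries S100a4 was at 0.935 RPKM or less. A transcript that overlaps the S100a4 locus, Gm42674, had 0 counts in all libraries.

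S100a10 (p11), which with annexin A2 links membranes to actin and does not itself respond to calcium, was low where S100a8 was high. Tumor monocytes had 12.2, 23.6, 11.1 and 17.5 RPKM, and means of 7.45 to 15.5 RPKM were found in the other monocyte, epithelial and stromal groups, all of which overlapped with their neighbours. Blood neutrophils were nearly without it, at 0.0132 to 0.135 RPKM in tumor-bearing and 0.0571 to 1.12 RPKM in healthy mice. In tumor neutrophils it was listed at 7.44, 0.000217, 2.44 and 0.602 RPKM, so that replicate 2 lay below and the other 3 libraries above the blood neutrophils of tumor-bearing mice.

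S100a14 and S100a16, members that are best known from epithelia, were highest on average in tumor epithelial and tumor stromal cells. S100a14 was at 4.03, 2.87, 11.03 and 4.37 RPKM in tumor epithelial cells, at 7.20, 4.83, 1.72 and 0.381 RPKM in tumor stromal cells, at 0.481, 1.38, 1.23 and 0.398 RPKM in healthy epithelial cells and at 0.139, 0.395, 0.205 and 0.127 RPKM in healthy stromal cells. Tumor neutrophils, at 3.89, 0.187, 0.775 and 0.496 RPKM, had a mean of 1.34 ± 1.72, above those of both healthy groups of the colon, and overlapped with both. Tumor monocytes had 0.0186, 0.252, 0.398 and 0.937 RPKM. In the 4 groups of blood cells it was at 0.0313 RPKM or less in every library, that is, at 3 counts or fewer. S100a16 was at 2.09 to 5.95 RPKM in tumor epithelial cells, 2.00 to 5.09 RPKM in tumor stromal cells and 2.58 to 4.18 RPKM in healthy stromal cells, and healthy epithelial cells lay below the last group without overlap (0.583 to 2.20 RPKM). Tumor neutrophils held S100a16 at 2.43, 1.46, 0.167 and 0.271 RPKM, which overlapped with healthy epithelium, and tumor monocytes at 0.00364 to 0.691 RPKM. Unlike S100a14, S100a16 overlapped between healthy stromal and tumor epithelial cells.

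S100a1, known for its role in calcium handling of muscle, and S100a13, which takes part in the release of proteins that lack a signal peptide, were low throughout. No group mean of either exceeded 5.09 RPKM as deposited, and neighbouring groups in their orders always overlapped. S100a1 was led by healthy epithelial cells (5.09 ± 3.36) and healthy blood monocytes (5.06 ± 7.39). The latter mean rested on replicate 2, at 16.1 RPKM, while the other 3 libraries were at 1.13 to 1.49 RPKM. S100a13 was highest in healthy stromal cells (3.99 ± 1.35) and healthy blood monocytes (3.57 ± 2.21) and lowest in healthy blood neutrophils (0.508 ± 0.410). Rescaled without mitochondrial genes, healthy blood monocytes led instead, and 2 of the 10 groups kept their place in its order.

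Across the 40 libraries, the gene whose log2(RPKM + 1) followed that of S100a8 most closely was Cxcr2, the chemokine receptor of neutrophils (Pearson r = 0.963), followed by Il18rap (0.955) and S100a9 (0.951). Ly86 was closest to S100a4 (0.976), with Gm10212 (0.974) and Ms4a6b (0.972) next. For S100a14 the closest were Gm17847 (0.960), the intestinal sodium/proton exchanger Slc9a3 (0.959) and Fam84a (0.957), for S100a16 the tight junction gene Tjp1 (0.951), and for S100a10 the chaperone gene Canx (0.941). S100a6 was followed less closely, by Ifitm7 (0.845), Gm7676 (0.815) and Anxa2 (0.808), as were S100a1 (Gm13443, 0.810) and S100a13 (I830127L07Rik, 0.807). The genes closest to S100a11 were its own pseudogenes (0.997 to 0.999). Among the members themselves S100a8 and S100a11 had r = 0.901, S100a14 and S100a16 0.727 and S100a8 and S100a10 -0.799. These values describe 40 libraries that share their cell types, over 4891 genes with a mean of 5 RPKM or more in at least 1 group.

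**Figure D3:**
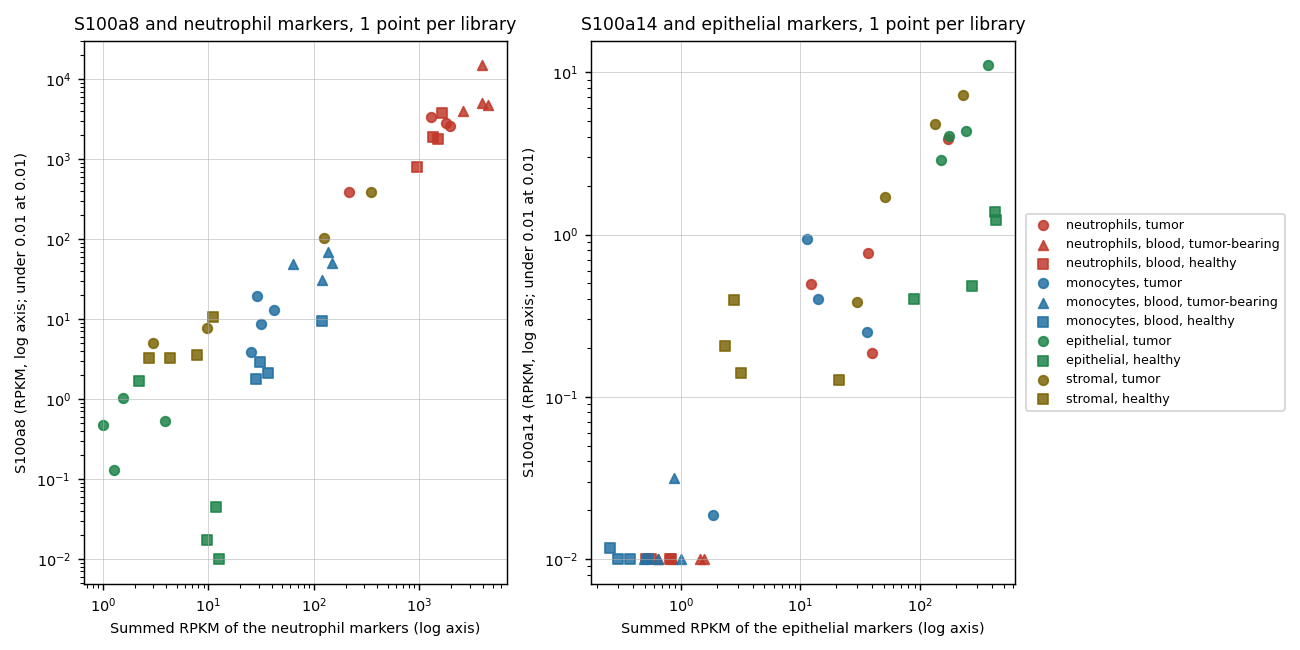
S100a8 against the summed RPKM of 8 neutrophil markers (left) and S100a14 against the summed RPKM of 10 epithelial markers (right), log axes, 1 point per library, values under 0.01 drawn at 0.01. Tumor stromal replicates 3 and 4, at 351 and 126 RPKM of neutrophil markers, hold 388 and 103 RPKM of S100a8, the first beside tumor neutrophil replicate 1 at 385 RPKM, and the tumor neutrophil library with 170 RPKM of epithelial markers lies among the tumor epithelial libraries for S100a14.

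To ask how S100 expression differed between neutrophils in tumors and those in the blood of the same kind of mice, 9 members could be tested. S100a14, S100a16 and S100a10 rose and no member fell, whereas 16.3% of all 13674 genes tested were called, 11.9% higher and 4.41% lower. The log2 fold change was 8.41 ± 1.34 for S100a14 (edgeR adjusted p = 0.00222), 8.32 ± 1.43 for S100a16 (edgeR adjusted p = 0.00308) and 4.98 ± 1.503 for S100a10 (edgeR adjusted p = 0.0430). Blood neutrophils of tumor-bearing mice held 1 count of S100a14 and 1.45 of S100a16 over all 4 libraries, so the fitted values depend on the prior count. From the counts alone the ratio of tumor to blood was 531 for S100a14 (95% exact interval 94.9 to 21005, counting error only) and 407 for S100a16 (72.6 to 16112). The tumor neutrophil library highest in all 3 genes, replicate 1, was also the one with the most epithelial markers (170 RPKM) and the fewest neutrophil markers (216 against 1290.4 to 1946 RPKM in the other 3). The calls of S100a14 and S100a16 held without each of the 8 libraries, replicate 1 included. Every tumor neutrophil library held epithelial markers (12.3 to 170 RPKM, against 0.647 to 1.55 RPKM in blood). Leaving out 1 library therefore cannot show the part of epithelial RNA in these changes, which was not tested. In bulk libraries such as these, fewer cells of a type and less RNA per cell cannot be told apart.

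The calprotectin pair did not pass the test between tumor and blood neutrophils, with log2 fold changes of -1.46 ± 0.77 for S100a8 (edgeR adjusted p = 0.219) and -0.78 ± 0.72 for S100a9 (edgeR adjusted p = 0.493). Values for S100a6 (-0.81 ± 0.45) and S100a11 (-0.68 ± 0.52) were also below 0 and did not pass. Among the 9 members the median log2 fold change was -0.68, against 0.11 over all genes tested. The call of S100a10 was lost without any of tumor neutrophil replicates 1 and 3 or of the 4 blood libraries (edgeR adjusted p = 0.0727 to 0.115). Without the libraries low in S100a9 against S100a8, S100a1 also passed (log2 fold change 5.17, edgeR adjusted p = 0.00418). The blood library left out there, replicate 3, held S100a1 at 0.487 RPKM against 0.0243 RPKM or less in the other 3. The tumor library left out there, replicate 2, held it at 0 RPKM against 0.415 to 1.18 RPKM in the remaining tumor libraries. Lists of S100 receptors, binding partners and other S100 genes were followed beside the members. Cd14, the coreceptor of Tlr4, and Bsg, a receptor for S100A9, rose in tumor neutrophils (2 of 6 receptors, none fell), with log2 fold changes of 2.97 ± 0.53 (edgeR adjusted p = 0.00371) and 2.43 ± 0.37 (edgeR adjusted p = 0.00184). Cd14 was at 363 to 1166 RPKM in tumor and 78.4 to 166 RPKM in blood. Among 10 binding partners the giant scaffold gene Ahnak rose (2.07 ± 0.53, edgeR adjusted p = 0.0216), and of 2 other S100 genes tested S100g rose (4.92 ± 1.31, edgeR adjusted p = 0.0264) and S100a7a fell (-3.50 ± 0.97, edgeR adjusted p = 0.0305). S100g, whose level in tumor epithelium was 110.0 to 175 RPKM, was at 42.8, 0.00104, 21.4 and 12.9 RPKM in tumor neutrophils, and Ahnak at 8.06, 3.28, 2.20 and 1.35 RPKM. Both were highest in replicate 1, the library with the most epithelial markers, whose part in these rises was not tested.

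In monocytes the calprotectin pair did pass this test. Of the 8 members tested between tumor and blood monocytes, S100a8 and S100a9 fell and none rose, with 11.7% of all 15280 genes called, 7.76% higher and 3.89% lower. S100a8 fell by 1.86 ± 0.48 on the log2 scale (edgeR adjusted p = 0.0242) and S100a9 by a log2 fold change of -3.05 ± 0.89 (edgeR adjusted p = 0.0396). S100a10 was higher in tumor monocytes by 1.36 ± 0.34 (edgeR adjusted p = 0.0210), which is under the fold threshold, and it was called without blood replicate 1 (1.74, edgeR adjusted p = 0.00623). S100a14 and S100a16 were too low to be tested with all libraries. S100a14 had 189 counts in tumor and 4.96 in blood monocytes over 4 libraries each, a ratio of 35.5 (95% exact interval 14.9 to 110, counting error only). It passed the filter and was called higher in tumor monocytes without tumor replicate 1 or blood replicate 2, 3 or 4 (log2 fold change 4.78 to 6.04, edgeR adjusted p = 0.00703 to 0.0449), with no filter and in a single fit of 40 libraries. The same single fit also called S100a16, whose counts in tumor monocytes came almost wholly from replicate 2. Epithelial markers summed to 1.86, 35.7, 14.1 and 11.3 RPKM in tumor and 0.493 to 0.997 RPKM in blood monocytes, and their part in these values was not tested. S100a4 had a log2 fold change of -0.91 ± 0.54 and S100a13 one of -1.42 ± 0.57, neither past the test, and the values of S100a6 (0.05 ± 0.35) and S100a1 (0.09 ± 0.67) were close to 0.

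Neutrophil markers also differed between these monocyte groups, summing to 42.0, 25.5, 29.1 and 31.5 RPKM in tumor and 120.1, 63.8, 137 and 148 RPKM in blood. Both calls depended on single libraries. That of S100a8 was lost without tumor replicate 4 or blood replicate 3 or 4 (edgeR adjusted p = 0.0504 to 0.0683), and that of S100a9 without tumor replicate 2 or 4 or blood replicate 1, 3 or 4 (edgeR adjusted p = 0.0751 to 0.0966). Of 6 receptors, Cd14 (4.62 ± 0.40, edgeR adjusted p = 4.36e-05), the scavenger receptor gene Cd36 (3.01 ± 0.56, edgeR adjusted p = 0.00455) and Tlr4 (1.92 ± 0.26, edgeR adjusted p = 0.000832) rose, and Ager, which encodes the receptor RAGE, fell (-3.62 ± 0.93, edgeR adjusted p = 0.0226). None of the 10 binding partners was called.

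The neutrophil change between tumor and blood was then set against the monocyte one in an interaction test over 16 libraries. No member was called by edgeR, against 3.99% of 17465 genes tested (2.73% higher in neutrophils, 1.26% lower), and 1 of 10 members had an unadjusted p under 0.05. That member was S100a10, with a difference in log2 fold change of 3.48 ± 1.36 (edgeR adjusted p = 0.151). It was called without tumor neutrophil replicate 2 (3.92, edgeR adjusted p = 0.0168). Without the libraries low in S100a9 against S100a8, S100a10 (4.13, edgeR adjusted p = 0.0445) and S100a1 (5.62, edgeR adjusted p = 0.0161) were both called. DESeq2 and limma-voom called none on all libraries. S100a8 had a difference of 0.30 ± 0.93 (edgeR adjusted p = 0.891) and S100a9 one of 2.16 ± 1.19 (edgeR adjusted p = 0.315).

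In blood, the question was how circulating cells of tumor-bearing mice differed from those of healthy mice. For neutrophils 5 members passed the filter on low counts, and S100a6 rose (log2 fold change 1.54 ± 0.38, edgeR adjusted p = 0.0384), with 4.01% of 13360 genes called, 1.79% higher and 2.22% lower. S100a8 (1.90 ± 0.54, edgeR adjusted p = 0.0651), S100a11 (0.90 ± 0.25, edgeR adjusted p = 0.0627), S100a9 (1.32 ± 0.62, edgeR adjusted p = 0.244) and S100a13 (1.27 ± 0.62, edgeR adjusted p = 0.262) had values above 0 without passing. The median of the 5 was 1.32, against -0.01 over all genes tested. The S100a6 call was lost without tumor-bearing replicate 1, 2 or 4 or healthy replicate 1, 2 or 3 (log2 fold change 1.31 to 1.69, edgeR adjusted p = 0.0555 to 0.121). S100a8 passed without healthy replicate 1 (2.38, edgeR adjusted p = 0.0430). Anxa1, the annexin that S100a11 binds, was the only called gene of the 10 binding partners (1.83 ± 0.26, edgeR adjusted p = 0.00392), and none of 6 receptors or of 2 other S100 genes tested was called.

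Neutrophil markers differed along with these values. Summed over 8 genes they were 4503, 3964, 3907 and 2597 RPKM in tumor-bearing and 1638, 1357, 952 and 1510.3 RPKM in healthy mice. Ngp, a granule protein gene of developing neutrophils, was at 135 to 456 RPKM against 3.31 to 12.0 RPKM. Retnlg (1270 to 2519 against 217 to 633 RPKM) and Mmp8 (272 to 904 against 60.7 to 110 RPKM) were also higher without overlap. The same held for Ly6g (13.9 to 39.3 against 1.47 to 8.28 RPKM), Ltf (11.4 to 33.8 against 0.288 to 1.47 RPKM) and Camp (5.79 to 30.1 against 0.110 to 1.71 RPKM). Cxcr2 overlapped (471 to 623 against 372 to 617 RPKM) and Csf3r was mostly lower (173 to 300.3 against 296 to 363 RPKM). Their part in the S100 values was not tested.

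In blood monocytes both calprotectin genes were called, in a comparison where few genes passed at all. S100a8 rose by a log2 fold change of 3.72 ± 0.58 (edgeR adjusted p = 0.0374) and S100a9 by 5.45 ± 0.85 (edgeR adjusted p = 0.0384). Only 32 of 15313 genes were called, 0.209% of them (0.0914% higher and 0.118% lower), so these 2 members were among 14 that rose. No member fell. S100a1 had a log2 fold change of -2.66 ± 0.95 (edgeR adjusted p = 0.382), and S100a4, S100a6, S100a10, S100a11 and S100a13 lay between -0.53 and 0.33. None of the receptors, binding partners or other S100 genes was called.

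Each of the 2 calls was lost without 7 of the 8 libraries in turn, with values that moved little. For S100a8 the log2 fold change stayed at 3.48 to 3.91 in those 7 fits (edgeR adjusted p = 0.0706 to 0.165), the exception being healthy replicate 2. For S100a9 it stayed at 5.14 to 5.96 (edgeR adjusted p = 0.0545 to 0.184), the exception being tumor-bearing replicate 2. Both of these replicates are among the libraries low in S100a9 against S100a8. The 8 neutrophil markers summed to 120.1, 63.8, 137 and 148 RPKM in tumor-bearing and 36.4, 118, 31.0 and 28.5 RPKM in healthy mice, an overlap through healthy replicate 2. Granule genes of neutrophils moved with the pair: Ngp was at 22.6 to 63.0 RPKM in tumor-bearing and 0.0195 to 0.0617 RPKM in healthy mice, and Camp at 0.376 to 9.76 against 0 to 0.0120 RPKM. Ltf also moved with the pair, at 2.64 to 5.90 against 0.0910 to 0.2401 RPKM. The remaining listed neutrophil markers were not higher throughout. Ly6g was lower in tumor-bearing mice (0.597 to 0.957 against 1.25 to 5.93 RPKM). Ranges overlapped for Mmp8 (16.4 to 78.7 against 8.23 to 19.5 RPKM) and Csf3r (14.2 to 20.4 against 13.95 to 18.5 RPKM). They also overlapped for Cxcr2 (0.0865 to 3.87 against 0.381 to 2.28 RPKM) and Retnlg (0.0378 to 6.01 against 0.993 to 71.8 RPKM). The part of any neutrophil RNA in these 2 calls was not tested.

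**Figure D4:**
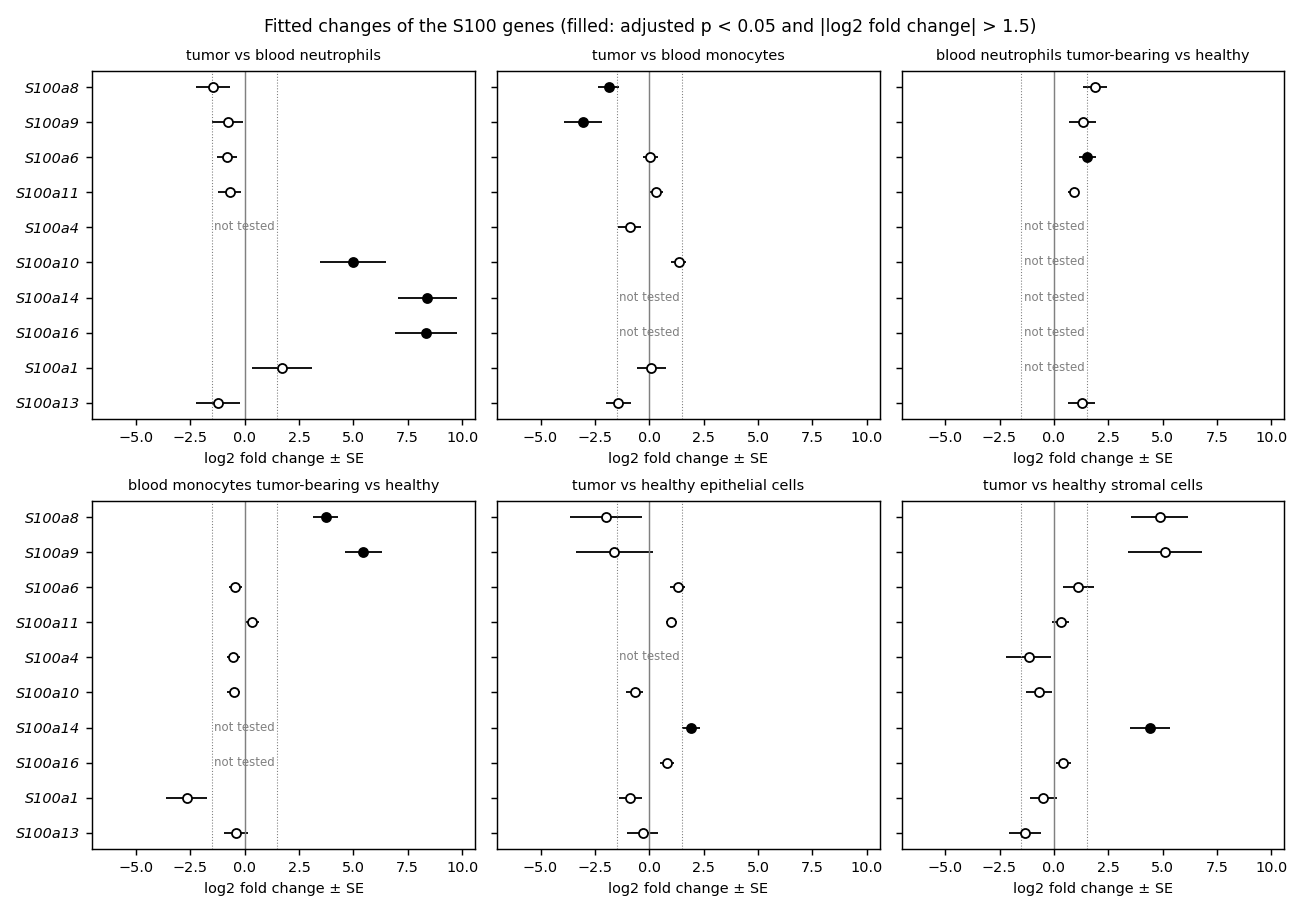
Log2 fold changes of the S100 genes with their standard errors in 6 comparisons of 4 against 4 libraries, with filled points for genes past both thresholds and dotted lines at 1.5 in either direction. S100a8 and S100a9 rise in the blood monocytes of tumor-bearing mice (3.72 and 5.45) and fall in tumor monocytes (-1.86 and -3.05). S100a14 is called higher in the tumor neutrophil, epithelial and stromal libraries. The neutrophil and stromal ones also held epithelial markers (12.3 to 170 and 29.9 to 227 RPKM), whose part was not tested.

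Between tumor and healthy epithelial cells 9 members were tested and S100a14 rose, by a log2 fold change of 1.92 ± 0.40 (edgeR adjusted p = 0.00582). Of all 16085 genes tested 15.4% were called, 7.52% higher and 7.88% lower. The call held without each of the 8 libraries. S100a6 (1.30 ± 0.35, edgeR adjusted p = 0.0230) and S100a11 (1.02 ± 0.26, edgeR adjusted p = 0.0168) passed the adjusted p but not the fold threshold, and S100a16 had 0.83 ± 0.32 (edgeR adjusted p = 0.0920). S100a6 also passed the fold threshold without healthy replicate 1 (1.57, edgeR adjusted p = 0.0110). Epithelial markers were at 150 to 370 RPKM in tumor and 89.9 to 429 RPKM in healthy epithelium, an overlap, while Krt20, a marker of differentiated colon epithelium, was lower in all tumor libraries (1.06 to 5.63 against 9.18 to 35.3 RPKM).

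The values of S100a8 and S100a9 in epithelium turned on 1 library. With all 8 libraries they had log2 fold changes of -1.97 ± 1.65 and -1.61 ± 1.77, neither past the test. Healthy replicate 4, which has S100a8 at 1.70 and S100a9 at 3.42 RPKM, stood far above the other 3 healthy libraries (at most 0.0450 and 0.0281 RPKM). That library also had the highest share of mitochondrial counts (83.9% against 48.6% to 67.4%) and the least Epcam (11.6 against 52.1 to 80.1 RPKM) of its group, and their part in these values was not tested. Without it both signs reversed and both genes were called higher in tumors, at 4.17 (edgeR adjusted p = 0.0309) and 6.61 (edgeR adjusted p = 0.00803). No library of tumor epithelium exceeded 2.73 RPKM of S100a9. Among related genes S100g, which encodes the intestinal calcium carrier calbindin-D9k, rose by 2.42 ± 0.33 (edgeR adjusted p = 0.000510), with 2.97 to 32.8 RPKM in healthy and 110.0 to 175 RPKM in tumor libraries. Of 10 binding partners Anxa6 (2.22 ± 0.71, edgeR adjusted p = 0.0481) and Anxa1 (2.03 ± 0.39, edgeR adjusted p = 0.00386) rose and Anxa11 fell (-1.52 ± 0.29, edgeR adjusted p = 0.00394), and none of 4 receptors tested was called.

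Stromal cells were compared in the same way, and of 10 members S100a14 alone rose (log2 fold change 4.40 ± 0.92, edgeR adjusted p = 0.0215), with 8.40% of 19081 genes called, 3.39% higher and 5.01% lower. The 2 tumor stromal libraries with the most S100a14, replicates 1 and 2 at 7.20 and 4.83 RPKM, were those with the most epithelial markers (227 and 132 RPKM, against 2.35 to 21.1 RPKM in healthy stromal cells). Leaving these 2 out gave 2.49 (edgeR adjusted p = 0.0987) for S100a14, while S100a8 (5.83, edgeR adjusted p = 0.00576) and S100a9 (6.08, edgeR adjusted p = 0.0225) were then called. The S100a14 call was also lost without healthy replicate 1 or 3 (edgeR adjusted p = 0.0656 to 0.0716) and without the libraries low in S100a9 (4.64, edgeR adjusted p = 0.0893). S100a8 (4.86 ± 1.32, edgeR adjusted p = 0.0513) and S100a9 (5.10 ± 1.71, edgeR adjusted p = 0.0990) missed the threshold with large spreads. Tumor replicates 3 and 4 held 388 and 103 RPKM of S100a8 and tumor replicates 1 and 2 only 7.74 and 5.10 RPKM, against 3.27 to 10.8 RPKM in healthy stromal cells. Replicates 3 and 4 were the libraries with neutrophil markers at 351 and 126 RPKM, and without them S100a8 had a value of 0.72 (edgeR adjusted p = 0.358) and S100a9 one of 0.66 (edgeR adjusted p = 0.725), S100a14 remained called (5.16, edgeR adjusted p = 0.00155) and S100a13 was called lower (-2.92, edgeR adjusted p = 0.0314). Without tumor replicate 1 or 2, S100a8 was called (5.26 and 5.27, edgeR adjusted p = 0.0392 and 0.0363). S100g (7.61 ± 1.14, edgeR adjusted p = 0.00719), Cd14 (4.99 ± 1.15, edgeR adjusted p = 0.0306) and the nonmuscle myosin gene Myh14 (2.59 ± 0.56, edgeR adjusted p = 0.0251) were the called genes among 3 other S100 genes, 6 receptors and 10 binding partners.

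The interaction that set the epithelial change against the stromal change called no member by edgeR, against 15.1% of 20901 genes (7.21% higher in epithelium, 7.93% lower). Members with an unadjusted p under 0.05 numbered 3, namely S100a8 (-6.74 ± 2.26, edgeR adjusted p = 0.0562), S100a9 (-6.62 ± 2.63, edgeR adjusted p = 0.106) and S100a14 (-2.45 ± 0.95, edgeR adjusted p = 0.0962). DESeq2 called S100a8 and limma-voom none. S100a8 was called by edgeR without tumor stromal replicate 1 or 2 or healthy epithelial replicate 1, 2 or 3 (edgeR adjusted p = 0.0410 to 0.0474), and S100a14 without tumor stromal replicate 4 (-2.82, edgeR adjusted p = 0.0179).

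The cell types of healthy mice gave the reference order. Healthy blood neutrophils exceeded healthy blood monocytes in S100a9 (log2 fold change 11.60 ± 0.98, edgeR adjusted p = 1.93e-05), S100a8 (9.74 ± 0.83, edgeR adjusted p = 1.95e-05) and S100a11 (3.21 ± 0.34, edgeR adjusted p = 6.49e-05). They were lower in S100a4 (-7.48 ± 0.66, edgeR adjusted p = 2.33e-05), S100a10 (-4.36 ± 0.84, edgeR adjusted p = 0.00202) and S100a13 (-2.06 ± 0.66, edgeR adjusted p = 0.0249). These 6 of 8 members tested stand beside 37.1% of 15033 genes called, 16.7% higher and 20.4% lower. S100a6 was higher in neutrophils by 1.30 ± 0.32 (edgeR adjusted p = 0.00736), under the fold threshold. The S100a13 call was lost without neutrophil replicate 3 or 4 or monocyte replicate 2 (edgeR adjusted p = 0.0558 to 0.0642), and without neutrophil replicate 1 S100a6 (1.52, edgeR adjusted p = 0.00264) and S100a1 (-4.04, edgeR adjusted p = 0.0291) were called as well. Without the libraries low in S100a9, S100a13 was under the fold threshold (-1.15, edgeR adjusted p = 0.0442). Of 6 receptors Cd14 (3.96 ± 0.40), Ager (3.26 ± 0.62) and Tlr4 (2.41 ± 0.27) were higher in neutrophils. Of 10 binding partners 3 were higher, among them Anxa11 (2.46 ± 0.29) and Myh10 (1.91 ± 0.24), and Ahnak was lower (-5.87 ± 0.31, edgeR adjusted p = 2.14e-06).

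Healthy epithelial cells exceeded healthy stromal cells in S100a14 (2.92 ± 0.56, edgeR adjusted p = 0.00295) and were lower in S100a13 (-1.55 ± 0.42, edgeR adjusted p = 0.0159), 2 of 10 members beside 30.9% of 18468 genes, 11.5% higher and 19.4% lower. The S100a13 call was lost without epithelial replicate 2 or 3 or stromal replicate 1 or 4 (edgeR adjusted p = 0.0508 to 0.0534). Epithelial replicate 4, the library high in mitochondrial counts and low in Epcam, again decided the calprotectin genes. With it S100a8 and S100a9 had values of -0.94 ± 1.57 and -0.95 ± 1.81, and without it they were called lower in epithelium, at -7.02 (edgeR adjusted p = 0.000884) and -9.09 (edgeR adjusted p = 0.00280), as was S100a4 (-5.04, edgeR adjusted p = 0.00646). Without stromal replicate 4, S100a1 was called higher (1.81, edgeR adjusted p = 0.0285). Of 5 receptors tested Cd36 (-5.56 ± 1.74, edgeR adjusted p = 0.0306) and Tlr4 (-1.99 ± 0.65, edgeR adjusted p = 0.0364) were lower in epithelium, and of 10 binding partners 4 were lower and Myh14 was higher (4.44 ± 0.37, edgeR adjusted p = 4.34e-05).

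Within the tumors, the 4 cell types were compared in 1 fit of 16 libraries and 19026 genes, so that the contrasts share libraries. Tumor neutrophils exceeded tumor monocytes in S100a9 (log2 fold change 9.97 ± 1.80, edgeR adjusted p = 0.00242), S100a8 (8.48 ± 1.44, edgeR adjusted p = 0.00159), S100a11 (2.93 ± 0.49, edgeR adjusted p = 0.00146) and S100a6 (2.61 ± 0.57, edgeR adjusted p = 0.00734), and were lower in S100a4 (-7.78 ± 1.47, edgeR adjusted p = 0.00316). These 5 of 10 members stand beside 13.8% of all genes (9.82% higher, 4.00% lower), and the 5 calls held without each of the 16 libraries. S100a10 (-2.32 ± 0.91, edgeR adjusted p = 0.0893) was called without neutrophil replicate 1 or 2 (-3.25 and -2.13, edgeR adjusted p = 0.0328 and 0.0330), and S100a16 (3.17 ± 1.19, edgeR adjusted p = 0.0793) without monocyte replicate 2 (7.55, edgeR adjusted p = 0.00152).

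Against tumor epithelial cells, tumor neutrophils were higher in S100a8 (13.03 ± 1.70, edgeR adjusted p = 3.67e-05), S100a9 (12.47 ± 1.97, edgeR adjusted p = 0.000179) and S100a11 (3.90 ± 0.51, edgeR adjusted p = 3.77e-05), 3 of 10 members with none lower, beside 21.6% of all genes (17.6% higher, 3.93% lower). S100a6 (1.73, edgeR adjusted p = 0.0225) and S100a1 (-2.61, edgeR adjusted p = 0.0469) were called without neutrophil replicate 1, and S100a1 also without neutrophil replicate 2 (-2.08, edgeR adjusted p = 0.0333). Against tumor stromal cells, S100a8 (5.33 ± 1.25, edgeR adjusted p = 0.00700), S100a9 (4.89 ± 1.44, edgeR adjusted p = 0.0258), S100a11 (3.77 ± 0.51, edgeR adjusted p = 0.000224) and S100a6 (2.10 ± 0.56, edgeR adjusted p = 0.0149) were higher, 4 of 10 members beside 16.1% of all genes (12.0% higher, 4.07% lower). With the titled animal as a block none of these 4 passed (edgeR adjusted p = 0.117 to 0.339), nor did any gene. The call of S100a6 was lost without neutrophil replicate 3 (1.76, edgeR adjusted p = 0.0533), and that of S100a9 without neutrophil replicate 3 or 4 or stromal replicate 1 or 4 (edgeR adjusted p = 0.0538 to 0.0619). Without stromal replicates 3 and 4 together the values of S100a8 and S100a9 were larger, at 9.43 (edgeR adjusted p = 0.000372) and 9.29 (edgeR adjusted p = 0.00414).

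Tumor monocytes exceeded tumor epithelial cells in S100a4 (7.73 ± 1.42, edgeR adjusted p = 0.000846) and S100a8 (4.55 ± 1.22, edgeR adjusted p = 0.0101) and were lower in S100a16 (-4.28 ± 1.25, edgeR adjusted p = 0.0158) and S100a14 (-3.51 ± 1.00, edgeR adjusted p = 0.0141). These 4 of 10 members stand beside 29.0% of all genes (14.2% higher, 14.9% lower), and their calls held without each library. With the titled animal as a block S100a14 did not pass (edgeR adjusted p = 0.0785). S100a1 was called in addition without tumor neutrophil replicate 2, which enters this contrast through the shared spread (-2.26, edgeR adjusted p = 0.00877). Tumor monocytes exceeded tumor stromal cells in S100a4 (5.98 ± 1.30, edgeR adjusted p = 0.00470) and were lower in S100a9 (-5.09 ± 1.46, edgeR adjusted p = 0.0199), S100a16 (-4.16 ± 1.24, edgeR adjusted p = 0.0243) and S100a14 (-2.94 ± 0.98, edgeR adjusted p = 0.0398), beside 20.3% of all genes (6.90% higher, 13.4% lower). With the titled animal as a block none of these 4 passed (edgeR adjusted p = 0.0515 to 0.679), and 333 genes were called in all. The last 3 were lost without single libraries: S100a9 without stromal replicate 3 or monocyte replicate 4 (edgeR adjusted p = 0.0534 to 0.0631), S100a16 without monocyte replicate 1 or 3 (edgeR adjusted p = 0.0556 to 0.0595) and S100a14 without monocyte replicate 1, 2 or 3, stromal replicate 1 or 2 or epithelial replicate 1 or 4 (edgeR adjusted p = 0.0513 to 0.111). S100a8 (-3.15 ± 1.13, edgeR adjusted p = 0.0543) was called without stromal or neutrophil replicate 1 or 2 (-3.55 to -3.13, edgeR adjusted p = 0.0297 to 0.0496). Without stromal replicates 3 and 4 the values of S100a8 and S100a9 were 1.00 (edgeR adjusted p = 0.473) and -0.65 (edgeR adjusted p = 0.739).

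Tumor epithelial cells differed from tumor stromal cells in S100a8 (-7.70 ± 1.40, edgeR adjusted p = 0.00695) and S100a9 (-7.58 ± 1.64, edgeR adjusted p = 0.0140), which were both lower in epithelium, beside 4.09% of all genes (0.0105% higher, 4.08% lower). Without stromal replicates 3 and 4, the libraries with neutrophil markers, neither passed (-3.53, edgeR adjusted p = 0.183, and -3.12, edgeR adjusted p = 0.897). The S100a9 call was also lost without epithelial replicate 2, 3 or 4 (edgeR adjusted p = 0.0561 to 0.0590) and with the titled animal as a block (edgeR adjusted p = 0.0618). S100a14 (0.57 ± 0.91) and S100a16 (0.12 ± 1.08) had values close to 0 in this contrast of libraries that both held epithelial markers.

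The other S100 genes in the files, 7 of the 8 listed, were mostly at the lower edge of detection. S100a2, S100a3, S100a5 and S100z did not exceed 0.263 RPKM in any library, and S100b, a glial marker, was highest in healthy stromal cells at 0.289 to 1.37 RPKM. S100g was the exception in epithelium, and S100a7a was at 0.149 to 0.666 RPKM in the blood neutrophils of tumor-bearing mice. Of the receptors of calprotectin, Tlr4 was at 8.39 to 27.7 RPKM in tumor neutrophils, 5.88 to 11.6 RPKM in tumor-bearing blood neutrophils and 7.26 to 12.7 RPKM in tumor monocytes. In the 16 tumor libraries, Cd14 (9.73 ± 1.08, edgeR adjusted p = 1.29e-05), Tlr4 (5.88 ± 0.68, edgeR adjusted p = 1.55e-05) and its cofactor gene Ly96 (2.87 ± 0.51, edgeR adjusted p = 0.000457) were higher in neutrophils than in epithelial cells, 3 of 6 receptors beside 17.6% of all genes. Against stromal cells the same 3 receptors were higher and Cd36 was lower (-5.33 ± 1.32, edgeR adjusted p = 0.0101), beside 12.0% of all genes higher and 4.07% lower. Against monocytes neutrophils were higher in Tlr4 alone (1.93 ± 0.57, edgeR adjusted p = 0.0311). Of the 10 binding partners, 5 were higher in tumor neutrophils than in epithelial cells (17.6% of all genes), 6 than in stromal cells (12.0%) and 4 than in monocytes (9.82%). With the titled animal as a block no gene was called between neutrophils and stromal cells. Anxa1, the partner of S100a11, was among those in all 3 contrasts (3.43 ± 0.51, 2.84 ± 0.50 and 2.78 ± 0.49), which share the neutrophil libraries. Ahnak, whose product S100a10 binds together with annexin A2, was lower in neutrophils than in monocytes (-3.32 ± 0.49, edgeR adjusted p = 0.000717).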

How the data were processed

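RNA of sorted cells was amplified with NuGEN Ovation V2, made into TruSeq Nano libraries and sequenced on an Illumina HiSeq. The processing notes name Bowtie2 and the mouse build mm10 without versions, and strand was not given in the sources used here. The authors deposited estimated counts per gene that need not be whole, which were rounded, and RPKM, reads per kilobase scaled to library size. The library size that the deposited RPKM imply was not the total count, since the ratio of both varied 2.42-fold over the 40 libraries, and how it was set is not given in the sources used here. The members and gene lists were chosen with earlier results of these data known. All members, up to the 3 called genes per list with the largest fold change and the 3 genes most like each member were named.

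Tests used edgeR 4.0.16 in R 4.3.3 (quasi-likelihood, robust, TMM scaling, filterByExpr), with 8 libraries per comparison of a pair of groups and 16 for the tumor contrasts and interactions. Called meant a Benjamini-Hochberg adjusted p under 0.05 over all genes tested and an absolute log2 fold change above 1.5 (no fold threshold for interactions). Alternatives used limma 3.58.1 and DESeq2 1.42.0, other filters and left-out libraries. The fitting code was run on simulated counts with a single spread shared by all genes, which the real libraries need not have. Such runs check the code and not the calls. Of 60 replicate pairs 0 were identical, and the lowest mean chi-square per gene was 21.5, where sampling noise alone gives 1. Depth was 10717873 to 38002939 counts per library, and intervals from counts cover counting error only. Likeness was Pearson's r of log2(RPKM + 1). Copies of a member were transcripts with 90% identity or more over at least 100 bases. Figures were drawn with matplotlib 3.10.9.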

Additional observations from a re-analysis of the deposited data

Results flagged for a closer look

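In groups of 4 libraries, a member's RPKM was singled out where the highest or lowest library was separated from the nearest other by more of the group's range than Dixon's 95% critical value for 4 samples allows. This held in 19 of 100 groups. The critical value assumes independent values with a normal spread, which RPKM need not have. The 100 groups also share the same 40 libraries, so the count cannot be set against a chance rate. No explanation was tested.

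S100a8 stood apart in replicate 3 of tumor-bearing blood neutrophils at 14922 RPKM (others 3988 to 5096), where S100a9 was low at 1568 (others 9264 to 10369). S100a8 was also high in replicate 2 of healthy blood monocytes at 9.37 (1.78 to 2.88) and in replicate 1 of healthy stromal cells at 10.8 (3.27 to 3.55). In replicate 4 of healthy epithelial cells both S100a8 (1.70, others 0 to 0.0450) and S100a9 (3.42, others 0 to 0.0281) were high.

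Replicate 1 of tumor neutrophils, the library with the most epithelial markers of its group, was low in S100a11 at 17.1 RPKM (76.5 to 80.0) and high in S100a14 at 3.89 (0.187 to 0.775) and S100a4 at 0.351 (0 to 0.000361). Replicate 1 of healthy blood neutrophils was high in S100a1 at 2.70 (0.0667 to 0.415) and S100a16 at 0.345 (0.000719 to 0.00896), and replicate 2 in S100a10 at 1.12 (0.0571 to 0.0868). S100a1 was also high in replicate 3 of tumor-bearing blood neutrophils at 0.487 (0 to 0.0243) and in replicate 2 of healthy blood monocytes at 16.1 (1.13 to 1.49). S100a4 was high in replicate 4 of tumor-bearing blood neutrophils at 0.935 (0.0385 to 0.136) and in replicate 4 of tumor stromal cells at 1.43 (0 to 0.201). The others were S100a10 in replicate 1 of tumor-bearing blood monocytes at 13.3 (5.26 to 5.68), S100a16 in replicate 2 of tumor monocytes at 0.691 (0.00364 to 0.0122), and S100a14 in replicate 2 of tumor-bearing blood neutrophils at 0.00923, where the others were at 0 and the value rests on 1 count.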

How the results depend on the processing

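Counts of S100 members called moved with the setting in most comparisons, and the cause was not tested. Leaving out each library in turn gave 2 to 3 called between tumor and blood neutrophils (3 with all libraries), 0 to 3 between tumor and blood monocytes (2), 0 to 1 in blood neutrophils (1), 0 to 1 in blood monocytes (2), 1 to 3 in epithelial cells (1), 0 to 2 in stromal cells (1), 5 to 8 between healthy neutrophils and monocytes (6) and 1 to 5 between healthy epithelial and stromal cells (2). Within tumors the ranges were 5 to 6 for neutrophils against monocytes (5), 3 to 5 against epithelial (3) and 2 to 4 against stromal cells (4), 4 to 5 for monocytes against epithelial (4) and 2 to 5 against stromal cells (4), 1 to 2 for epithelial against stromal cells (2), and 0 to 1 in each interaction (0). Of the 40 called results, each a member in a comparison, 15 were lost at least once, and 0 changed sign.

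limma-voom called 1 in blood monocytes, 1 between tumor and blood monocytes, 0 in stromal cells, 4 between healthy epithelial and stromal cells, 2 between tumor monocytes and stromal cells and 0 between tumor epithelial and stromal cells. DESeq2 called 2 in blood neutrophils, 3 in stromal cells and 1 in the epithelial minus stromal interaction. With no filter 0 were called in blood neutrophils. Asking for 10 counts in every library left 0 between tumor and blood neutrophils, 3 between healthy neutrophils and monocytes, 3, 2 and 0 for tumor neutrophils against monocytes and stromal cells and for tumor monocytes against epithelial cells, and 1 in each of the other contrasts with tumor stromal cells. Under that filter S100a14, S100a16 and S100a10 went untested between tumor and blood neutrophils, since each had libraries under 10 counts. The 0 there is thus no test of their calls. Members dropped out of other comparisons in the same way. With no fold threshold 3 were called in epithelial cells. limma on log2(RPKM + 1) called 0 between tumor and blood neutrophils, in blood neutrophils and in stromal cells, 1 in blood monocytes, 2 in epithelial cells, 6 between tumor neutrophils and epithelial cells, 2 between tumor monocytes and stromal cells and 1 between tumor epithelial and stromal cells. With 0.1 in place of 1 the counts were 0 in blood neutrophils, 1 in blood monocytes, 3 in epithelial cells, 6 between healthy epithelial and stromal cells, 7 between tumor neutrophils and epithelial cells and 1 between tumor epithelial and stromal cells. A single fit of 40 libraries called 0 in blood neutrophils, blood monocytes and epithelial cells, 3 in stromal cells, 1 between healthy epithelial and stromal cells and 2 in the epithelial minus stromal interaction.

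Replicate numbers did not pair the libraries (correlations of same-numbered libraries -0.152 to 0.252 over 8 comparisons). With the replicate block the count was 1 in blood monocytes, 1 between tumor and blood monocytes, 2 between tumor monocytes and stromal cells, 0 between tumor epithelial and stromal cells, 2 between tumor and blood neutrophils, 1 each in blood neutrophils, epithelial and stromal cells, 6 and 2 in the healthy comparisons, and 6, 3, 3 and 4 in the remaining tumor contrasts. A block for the animal in the titles called 0 for neutrophils and for monocytes against stromal cells and 1 for tumor epithelial against stromal cells, though the titled animal is uncertain for some libraries. Leaving out tumor stromal replicates 1 and 2 and tumor neutrophil replicate 1 gave 2 in stromal cells and 1 in the epithelial minus stromal interaction. Of 3 settings chosen after seeing the data, leaving out libraries low in S100a9 gave 2 in blood neutrophils, 0 in stromal cells and 2 in the neutrophil minus monocyte interaction, which is no test of S100a8 and S100a9, since these chose the libraries. Leaving out tumor stromal replicates 3 and 4 gave 2 in stromal cells, 0 between tumor epithelial and stromal cells and 1 in the epithelial minus stromal interaction. Summing S100a11 with its copies moved no count by over 1.5 times.

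In epithelial cells the sign of S100a9 reversed with limma on log2(RPKM + 0.1) (2.13) and without healthy replicate 4, as did that of S100a8 without that library. Leaving out each library gave -2.31 to 6.61 for S100a9 (-1.61 with all) and -2.62 to 4.17 for S100a8 (-1.97 with all). RPKM rescaled without mitochondrial genes moved in tumor-bearing blood neutrophils to 387 (S100a6), 15624 (S100a8), 16532 (S100a9) and 245 (S100a11), and to 23.4 in tumor monocytes (S100a10), 8.23 in healthy epithelial cells (S100a1, 5.09 as deposited) and 3.97 in healthy stromal cells (S100a13), which healthy blood monocytes then exceeded. In blood, S100a14 had 2.97 counts or fewer in every library. S100a16 had 2.41 or fewer there, except in healthy blood neutrophils, where it reached 29.1 counts. The part of depth in these low counts was not tested.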
